A study of Rattus norvegicus with 2 samples.

Results

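Lymphatic endothelial cells (LECs) of skeletal muscle were examined in single-cell transcriptomes of 1 rat-mouse chimera and 1 Sprague-Dawley (SD) rat, and 155 of the 21154 cells that passed the quality limits met the rule for LECs, 1 of them a mouse cell without the rest of the lymphatic pattern. They were chosen by their own transcripts, so the genes of the rule are a description and not a result. A LEC had at least 3 of the 6 genes Prox1, Mmrn1, Reln, Flt4, Lyve1 and Pdpn, with Prox1 or Mmrn1 among them. It also had Pecam1 or Cdh5, which mark endothelium, and neither Ptprc, which marks leukocytes, nor Pdgfra, which marks fibro-adipogenic cells. The chimera was an SD rat that had received mouse iPSCs as a morula. These iPSCs came from a Dmd mdx mouse with a Pax7-nGFP reporter and carried a CRISPR/Cas9 edit that restores the dystrophin reading frame. The SD rat was a control without mouse cells. Each group was 1 animal and 1 library, so no difference below has a replicate check, no test was possible, and the intervals (95%) cover counting error only.

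LECs line the vessels that return fluid, lipids and leukocytes from tissue to blood. Prox1 is the transcription factor that sets and maintains their identity, and Flt4 (VEGFR3) is the receptor for the lymphatic growth factor Vegfc. Lyve1 binds hyaluronan, Pdpn is a membrane glycoprotein, and Mmrn1 and Reln are secreted proteins of lymphatic endothelium. Ccl21 is the chemokine that draws Ccr7-bearing dendritic cells and T cells into lymphatic vessels. In muscle, lymphatic vessels are few and run with the larger blood vessels.

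The SD rat gave 97 LECs, the rat cells of the chimera gave 57, and the mouse cells of the chimera gave 1. Chimera cells with at most 20% of their unique molecular identifiers (UMIs, 1 per captured transcript) on mouse genes were called rat, and those with at least 80% mouse. The LECs held a median of 6032 UMIs in the SD rat (range 1659 to 34870) and 7596 in the chimera (1827 to 54641). Mitochondrial UMIs made up 5.49% and 5.85% of the median LEC, and no LEC was marked as a doublet. The libraries shared 43 barcodes, none of them a LEC in both.

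The LEC share of all cells was 1.08% in the SD rat (0.877 to 1.32), and it was 0.672% among rat cells of the chimera (0.510 to 0.870). Those shares move with how many cells of every other type were caught, so endothelial cells were also taken as the base. Blood endothelial cells were defined by both Pecam1 and Cdh5, with no Prox1, Mmrn1, Ptprc or Pdgfra and at most 1 of the remaining lymphatic markers. On this base LECs were 97 of 820 endothelial cells in the SD rat (11.8%, 9.70 to 14.2) and 57 of 596 in the chimera rat cells (9.56%, 7.32 to 12.2), and the counting intervals overlap. Among chimera mouse cells they were 1 of 904 (0.111%, 0.00280 to 0.615). By the rule, mouse cells made up 1 of 58 chimera LECs (1.72%, 0.0436 to 9.24), against 903 of 1442 blood endothelial cells (62.6%, 60.1 to 65.1) and 1861 of all 10338 species-called cells (18.0%, 17.3 to 18.8). The 1 mouse cell is described below, and without it all 57 chimera LECs were rat cells. Among those 57, 1 rat cell, also described below, had a pattern of genes like that of the mouse cell but stays counted. The chimera rat count depends on the species limits, since its LECs carried 6.80% to 17.4% of their UMIs on mouse genes (median 12.5%). With limits of 10% and 90%, only 6 chimera rat LECs were left (0.202% of the rat cells), and they were 13.6% of endothelial cells. The LECs of 54641 and 39767 UMIs, described below for their blood endothelial genes, were among these 6.

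**Figure D1:**
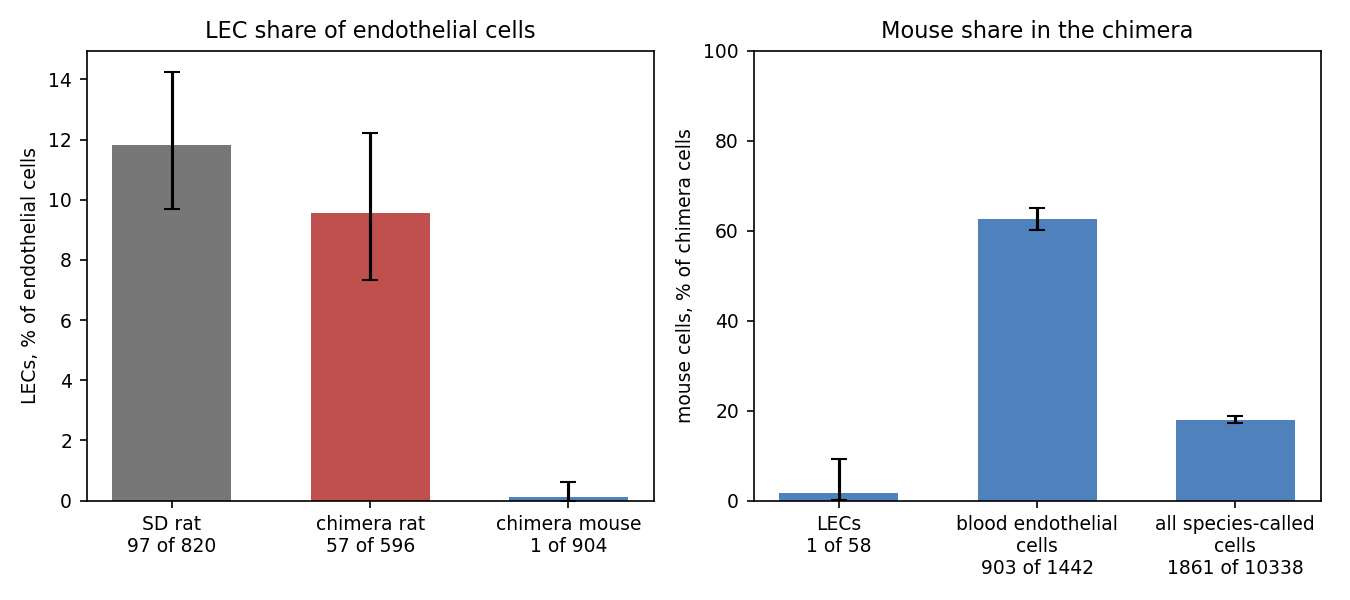
Left, LECs as a percentage of LECs plus blood endothelial cells (y axis) in SD rat, chimera rat and chimera mouse cells. Right, mouse cells as a percentage of chimera LECs, blood endothelial cells and all species-called cells. Bars are shares of 1 library with exact 95% counting intervals. The LEC shares of SD rat (11.8%) and chimera rat cells (9.56%) have overlapping intervals, and the mouse share is 62.6% in blood endothelial cells. The mouse bars for LECs rest on 1 rule-positive cell that went against a lymphatic name.

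The one mouse cell that met the rule did not carry the rest of the lymphatic pattern. At 18182 UMIs it was deeper than the median LEC, and it held 1 Prox1, 2 Flt4 and 1 Pdpn UMI with no UMI of Mmrn1, Reln, Lyve1 or Ccl21. It held 23 UMIs of Flt1 and 53 of Cd36, both genes of blood capillary endothelium. Its genes go against a lymphatic name, and it is called a rule-positive mouse cell here and left out of what follows. The wider set of mouse cells with Pecam1 or Cdh5 and without Ptprc or Pdgfra, counted on mouse rows alone, numbered 1119. Prox1 was found in 43 of them (3.84%, 2.79 to 5.14), with at most 3 UMIs in a cell, and those 43 cells had a median depth of 12824 UMIs against 6238 for the set. Mmrn1 was found in 1 cell, Reln in 5, Lyve1 in 3 and Sema3d in 2. Tbx1 was in 0 of 1119 cells, and 3 counts would have been a share of 0.268%. The mouse chemokine genes Ccl21a, Ccl21b and Ccl21d were also at 0 in these cells, and the whole chimera library held 1 UMI of Ccl21a and none of the others. Flt4, which blood capillaries can also express, was found in 197 cells (17.6%). Only 1 mouse endothelial cell held more than 1 of Mmrn1, Reln, Lyve1, Tbx1 and Sema3d, and 1 of the 43 Prox1 cells held any of them. The more frequent Maf, Pkhd1l1 and Flt4 were not in that set.

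By the rule the rat LECs of both animals carried lymphatic genes together, so the shares of these genes are a description. Prox1 (ENSRNOG00000003694) was found in 72.2% of SD rat LECs and 82.5% of chimera rat LECs, at 293 and 316 CPM. CPM here are UMIs per 1e+06 UMIs on the 16235 gene symbols present in both species. Mmrn1 (ENSRNOG00000024986) was found in 95.9% and 89.5%, and Reln (ENSRNOG00000021441) in 91.8% and 93.0%. Pdpn (ENSRNOG00000014961) was in 91.8% and 89.5%, and Flt4 (ENSRNOG00000002511) in 43.3% and 31.6%. Cells with both Prox1 and Mmrn1 numbered 66 of 97 and 41 of 57. In the chimera, 54.0% of the Prox1 UMIs of rat LECs (75 of 139) lay on the mouse row. Lyve1 was measured on its mouse row alone (ENSMUSG00000030787), and a rat Lyve1 row was not analysed here. That mouse row held 98 UMIs in 39 of the 57 chimera rat LECs (68.4%), while 2 of 539 chimera rat blood endothelial cells had a UMI of it. Both groups were chosen in part on Lyve1, since a blood endothelial cell could hold at most 1 of Reln, Flt4, Lyve1 and Pdpn. The SD rat cells were thus chosen on 5 markers and the chimera cells on 6, and leaving Lyve1 out of the rule gave the same 97, 57 and 1 cells.

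Cells just inside and just outside the limit of 3 markers were compared as a description. The 28 SD rat LECs with 3 markers held Mmrn1 in 24 cells and the chemokine Ccl21, which the rule did not use, in 24. The 17 SD rat cells just outside, with 2 markers, held Mmrn1 in 6 and Ccl21 in 7. In chimera rat cells the 9 LECs with 3 markers held Mmrn1 in 6 and Ccl21 in 7, and the 18 cells with 2 markers held Prox1 in 18, Mmrn1 in 3 and Ccl21 in 1. Cells with enough markers were also left out for lacking Pecam1 and Cdh5 or for a UMI of Ptprc or Pdgfra. They numbered 10 in the SD rat (5 with Ccl21) and 29 in the chimera rat cells (15 with Ccl21).

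Ccl21 (ENSRNOG00000034290) lay outside the rule and was found in 93 of 97 SD rat LECs and 49 of 57 chimera rat LECs. Its UMIs per cell ran from 0 through a median of 154 to 1009 in the SD rat, and from 0 through 155 to 1572 in the chimera. It made up 3.32% of all UMIs of the SD rat LECs and 2.55% of those of the chimera, and up to 17.0% and 20.2% of a single cell. Blood endothelial cells held a Ccl21 UMI in 1.94% and 3.15% of cells, with at most 2 in a cell, at median depths of 3818 and 5421 UMIs. With every cell thinned to 1000 UMIs the shares were 87.6% and 78.9% in LECs, against 0.287% and 0.187% in blood endothelial cells.

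**Figure D2:**
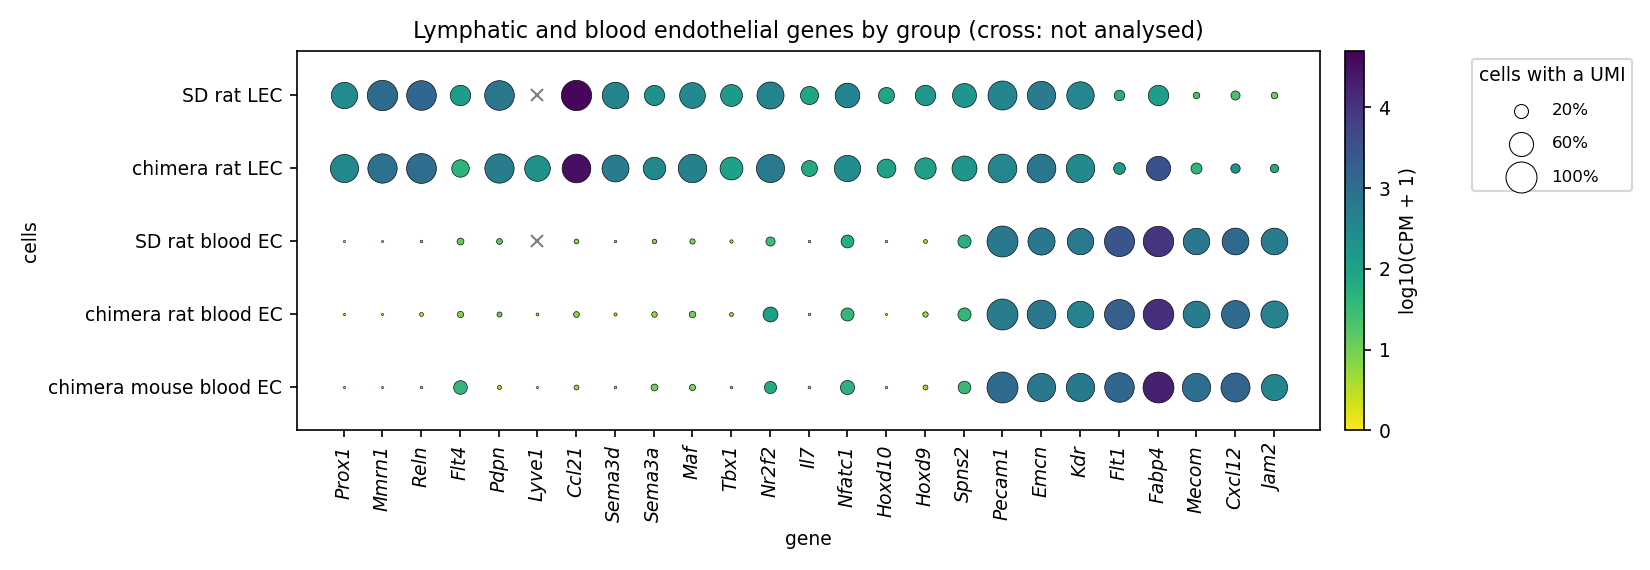
Genes (x axis) in 5 groups of cells (y axis). The size of a point is the percentage of cells with a UMI, the colour is log10(CPM + 1), and a cross marks Lyve1 where it was not analysed. Ccl21, Sema3d, Maf and Tbx1 are found in both rat LEC groups and in few blood endothelial cells of either species, and Flt1 and Cxcl12 are at higher levels in the blood endothelial cells.

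Ccl21 varied widely among the LECs. In the SD rat, 57 cells held at least 100 Ccl21 UMIs, 21 held 10 to 99 and 19 held fewer than 10. In the chimera rat cells the numbers were 32, 10 and 15. The cells with fewer than 10 (Ccl21-low) had a median of 4569 UMIs against 6736 for those with at least 100 (Ccl21-high) in the SD rat, and 8509 against 6775.5 in the chimera. Prox1 was in 16 of 19 Ccl21-low cells of the SD rat and 15 of 15 of the chimera. In Ccl21-high cells it was in 42 of 57 and 24 of 32. By the rule a LEC without Mmrn1 had to hold Prox1, so these counts are a description. Mmrn1 per 1e+06 of all UMIs was 454 in the Ccl21-low and 1173 in the Ccl21-high cells of the SD rat, and 383 and 906 in the chimera. Pdpn had the same order, at 316 and 576 per 1e+06 UMIs in the SD rat and 236 and 573 in the chimera. In the Ccl21-low cells of the SD rat Cldn11, a tight junction gene listed with valves, was at 251 per 1e+06 UMIs against 84.1. This rests on few cells. The Ccl21-low cells held 31 Cldn11 UMIs in 7 of 19 cells, 11 of them in 1 cell. The Ccl21-high cells held 39 UMIs in 8 of 57 cells, 27 of them in 1 cell. In the chimera Cldn11 was at 47.2 in Ccl21-low and 51.8 in Ccl21-high cells. Of the Ccl21-low cells, 1 in each animal is among 4 cells, described below, that stood apart. Without them Mmrn1 was at 507 and 537 per 1e+06 UMIs and Pdpn at 357 and 272 in the Ccl21-low cells of the SD rat and the chimera. Chimera Cldn11 was then at 66.2 against 51.8, on only 9 UMIs in 14 Ccl21-low cells and 14 UMIs in 32 Ccl21-high cells. Its order in the chimera is therefore not settled.

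Valves of collecting lymphatics express Foxc2, Itga9, the connexin Gja4 and Cldn11. At least 2 of these 4 genes were found in 28 SD rat LECs and 21 chimera rat LECs, and those cells were deeper (median 9444 against 5647 UMIs, and 11602 against 6582.5), so depth moves with that split. Of these cells 27 and 18 also held Ccl21. Cells with both Mki67 and Top2a, which mark cycling cells, numbered 1 in the SD rat and 2 in the chimera.

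**Figure D3:**
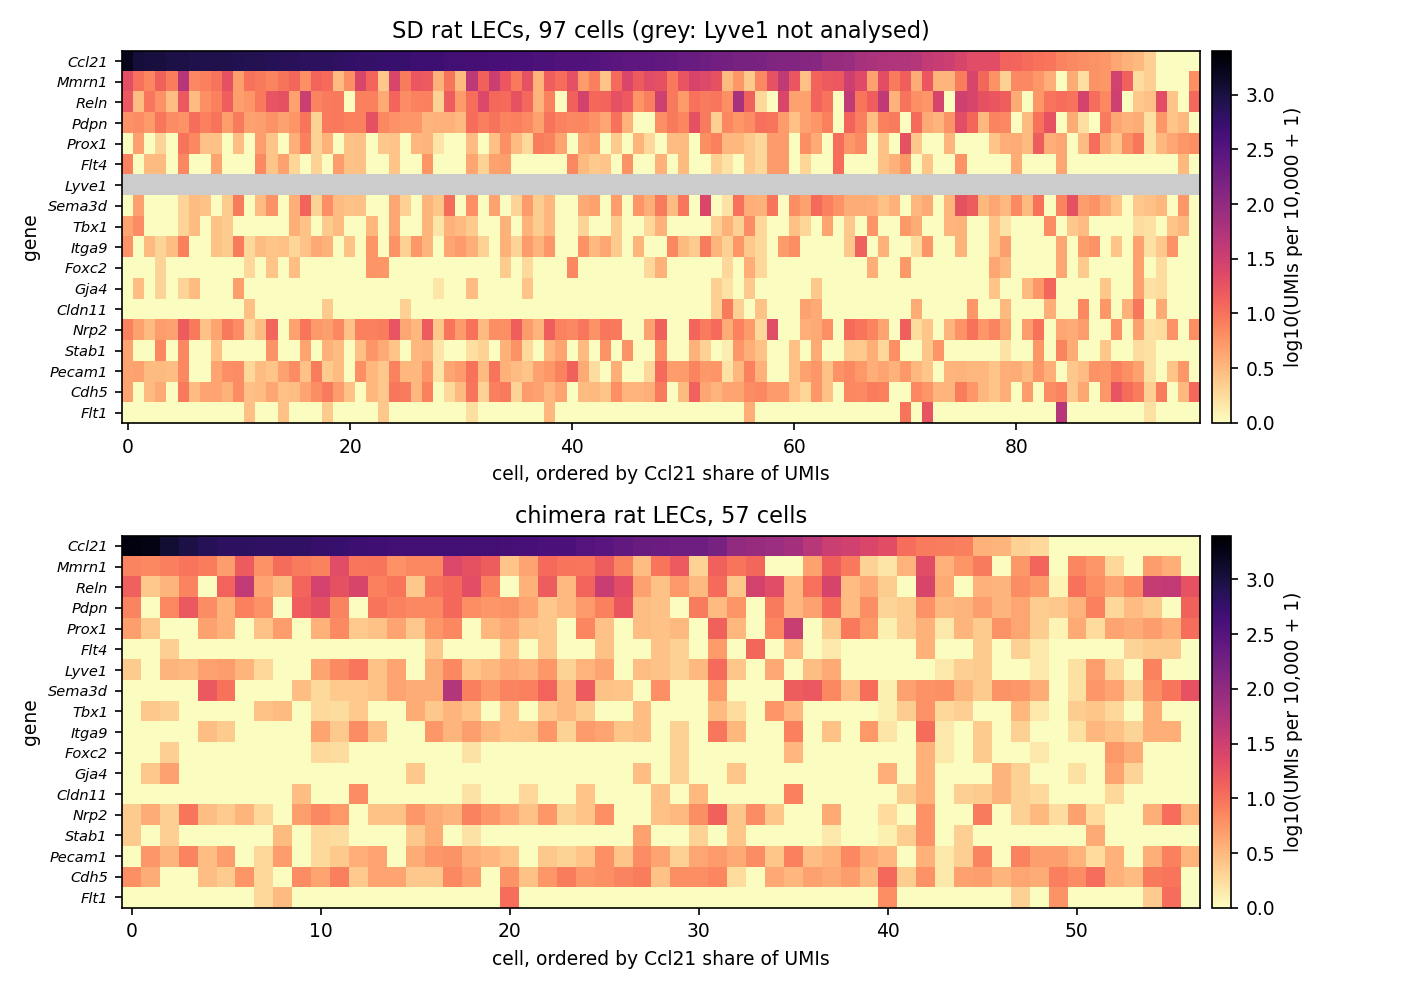
Single LECs of the SD rat (97 cells, top) and of the chimera rat cells (57 cells, bottom), ordered along the x axis by the Ccl21 share of UMIs, with genes as rows and log10 of scaled UMIs plus 1 as colour. Mmrn1, Reln and Pdpn are present along the whole order, and the cells at the right hold fewer than 10 Ccl21 UMIs.

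A few cells stood apart from the rest and are named before the fold changes because they set several of them. In the SD rat, 1 LEC of 16893 UMIs held 2116 of the 2818 UMIs of the mesenchymal marker list, 1015 of them Col1a1, beside 1 Prox1, 2 Mmrn1 and 3 Reln. In the chimera, 1 LEC of 23338 UMIs held 874 of the 1110 mesenchymal UMIs. A chimera LEC of 54641 UMIs held 1213 of the 3293 UMIs of the blood endothelial list, with 744 of Fabp4, 0 of Mmrn1 and 0 of Ccl21. It held 1 Prox1, 1 Reln and 8 Pdpn UMIs and 26 of Flt1. Its genes go against a lymphatic name as those of the mouse cell did, but by the rule it stays among the 57. Another chimera LEC of 39767 UMIs held 869 UMIs of that list, with 577 of Fabp4 and 76 of Ccl21. Values without these 4 cells, an alternative chosen after seeing the data, are given below for the lists they held.

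Marker lists of other cell types were summed over the LECs. Of the 12 immune genes measured, 6 were at 0 in SD rat LECs and 4 in chimera rat LECs, with Ptprc, Cd3g and Cd79b at 0 in both, and their summed level was 30.7 and 29.1 per 1e+06 UMIs. The mural list was at 160 and 279 per 1e+06 UMIs, against 866 and 1024 in blood endothelial cells. In the SD rat 1 LEC held 47 of the 115 mural UMIs and in the chimera 1 held 101 of 163, while the median LEC held 0. Without the 4 cells the mural level was 160 and 53.5. Mesothelial genes were at 0. The muscle list was found in all LECs, at 9065 per 1e+06 UMIs in the SD rat (1921 to 118381 in single cells) and 3188 in the chimera (1034 to 28462). The mesenchymal list was at 3927 per 1e+06 UMIs in the SD rat (115 to 125259 in single cells) and 1899 in the chimera (0 to 37450), and its defining gene Pdgfra was at 0 by the rule. Without the 4 cells the mesenchymal level was 1002 and 401. The part of these transcripts in the results below was not tested.

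LECs were next set against blood endothelial cells of the same animal, to describe what distinguishes lymphatic from blood vessel endothelium in this muscle. A gene counted as higher or lower at 2-fold or more on the log2(CPM + 5) scale. Because the rule chose the cells within this contrast, the values are a description with no test. In the SD rat 700 of 8194 genes were higher (8.54%) and 1113 lower (13.6%). In the chimera rat cells 507 of 8283 were higher (6.12%) and 948 lower (11.4%). Outside the rule genes, 344 were higher in both animals, which is 53.6% of those in the SD rat and 73.2% of those in the chimera. A further 629 were lower in both, or 60.1% and 71.7%.

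Genes were ranked by the smaller of their 2 ratios, over the symbols present in both species, which leaves out Ccl21. Sema3d, a secreted guidance protein, came first. It was at 399 CPM in LECs and 0.339 CPM in blood endothelial cells of the SD rat, a ratio of 1177 that rests on 1 blood endothelial UMI (209 to 46685). In the chimera it was at 568 and 0.965 CPM. Pard6g, a polarity protein, was at 728 and 4.41 CPM in the SD rat (165-fold, 95.4 to 313) and at 459 and 4.18 CPM in the chimera (110-fold, 62.8 to 210). Its partner kinase Prkcz was also among the 15 highest genes, at 168 and 1.02 CPM in the SD rat and 116 and 1.61 in the chimera. Duoxa2, a maturation factor of a dual oxidase, had no UMI in blood endothelial cells of either animal. Against an assumed 3 UMIs over the group it was 111-fold higher in SD rat and 122-fold higher in chimera LECs. The lower 95% limits were 87.8 and 96.1. The mechanosensitive channel Piezo2 was at 277 and 1.70 CPM in the SD rat and 250 and 2.90 in the chimera. The Notch-pathway ligase gene Dtx1 was at 346 and 0.679 CPM in the SD rat. The heparan sulphate proteoglycan Sdc4 was at 984 and 18.3 CPM in the SD rat and 1214 and 17.7 in the chimera. Sh3gl3, Tc2n, Cst6, Maf, Pkhd1l1, Nsg1, Sema3a and Tmod2 made up the rest of the 15, with log2 ratios of 4.30 to 5.32 across both animals.

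Lymphatic genes outside the rule were mostly higher. Of 17 that could be compared, 14 were higher and 1 lower in the SD rat, and 12 higher and 1 lower in the chimera, against 8.54% and 6.12% of all genes higher, with medians of 2.33 and 1.47 on the log2 scale against 0.06 and 0.01 over all genes. Il7, a survival cytokine for lymphocytes, was at 88.4 and 0.339 CPM in the SD rat and 72.7 and 0.322 in the chimera. Itga9, an integrin of lymphatic valves, was at 263 and 40.7 CPM and at 195 and 28.6. The receptor Stab1 was at 155 against 42.1 CPM and at 54.5 against 18.7. Thy1 was lower in LECs of both animals. Nrp2, the Vegfc co-receptor, missed the 2-fold limit, at 599 against 381 CPM and 291 against 277.

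Of the endothelial transcription factors outside the rule, 14 of 27 were higher and 4 lower in the SD rat, and 11 of 26 were higher and 4 lower in the chimera, against 8.54% and 6.12% of all genes higher. Nr2f2 (COUP-TFII), which acts upstream of Prox1, was at 399 and 27.8 CPM in the SD rat and 605 and 107 in the chimera. Tbx1, required for lymphatic growth, was at 145 and 1.70 CPM and at 107 and 3.22. The Hox genes Hoxd8, Hoxd9 and Hoxd10 were higher in both. Hoxd10 was at 90.1 against 0.339 CPM in the SD rat. In the chimera blood endothelial cells had no UMI, and it was 111-fold higher against an assumed 3 UMIs. Nfatc1, a valve and lymphatic factor, was at 369 and 57.0 CPM and at 268 and 38.0. The flow-responsive factor Klf2 was at 2969 and 617 CPM and at 3216 and 1373. Sox17, a factor of arterial endothelium, was lower in both animals, as were Sox7, Tcf15 and Mecom. Mecom was at 21.2 and 678 CPM in the SD rat and 43.2 and 550 in the chimera.

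Of 13 genes of lymphangiogenic signalling outside the rule, 2 (Ephb4 and Vegfa) were higher in both animals, while Nrp1, Ptprb and Tek were lower in both and Vegfc in the SD rat. Over all genes 8.54% and 6.12% were higher and 13.6% and 11.4% lower. Nrp1, the co-receptor for Vegfa in blood vessels, was at 15.9 against 765 CPM in the SD rat and 59.1 against 493 in the chimera. Kdr (VEGFR2) stayed within 2-fold, at 348 and 598 CPM in the SD rat and 302 and 429 in the chimera. Tie1 was at 378 and 316 CPM and at 207 and 227.

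Genes of leukocyte traffic went in both directions, with 6 of 20 higher and 8 lower in the SD rat, and 6 higher and 7 lower in the chimera. The shares over all genes were 8.54% higher and 13.6% lower in the SD rat and 6.12% and 11.4% in the chimera. Spns2, the exporter of sphingosine-1-phosphate, was at 166 and 51.3 CPM in the SD rat and 177 and 39.9 in the chimera. The scavenger receptor gene Mrc1 was at 37.1 and 3.39 CPM and at 40.9 and 4.18. The adhesion molecule Icam1 was at 290 and 134 CPM and at 580 and 246. Cxcl12, the ligand of Cxcr4, was at 23.0 against 1297 CPM in the SD rat and 209 against 1212 in the chimera, where 3 of its 5 positive LECs held 80 of 92 UMIs. Vcam1, Il33, Cx3cl1, Cd200, Alcam and Sphk1 were lower in both animals as well.

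Valve genes and junction genes were mixed, and matrix genes were more often lower than higher. In the valve list 6 of 14 were higher and 4 lower in the SD rat, and 3 of 12 higher and 2 lower in the chimera, against the 8.54% and 13.6%, and the 6.12% and 11.4%, of all genes. Among junction genes, Cgnl1 and Dsp were higher in both, at 115 and 22.4 CPM for Cgnl1 in the SD rat and 68.2 and 6.44 in the chimera. Cd34, Esam, Jam2, Jam3 and Vcl were lower in both, and Jam2 was at 10.6 against 561 CPM in the SD rat. Apart from Mmrn1 and Reln, 1 of 17 matrix genes was higher and 9 lower in the SD rat, with a median log2 ratio of -1.08. In the chimera 0 of 18 were higher and 6 lower, with a median of -0.84. The shares of all genes are those given for the valve list. Sparc, a matrix protein of vessel walls, was at 947 against 5331 CPM in the SD rat and 1716 against 4945 in the chimera.

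Of the blood endothelial genes, 16 of 20 were lower and 0 higher in the SD rat and 14 of 19 lower and 0 higher in the chimera, against 13.6% and 11.4% of all genes lower. The medians were -3.09 and -1.91 on the log2 scale. Without the 4 cells that stood apart they were -3.06 and -4.23, with 16 of 20 lower in the SD rat, and 13 of 19 lower and 1 higher in the chimera. Flt1 (VEGFR1) was at 67.2 against 3017 CPM in the SD rat and 145 against 1996 in the chimera. The lipid chaperone Fabp4 was at 127 against 10028 CPM in the SD rat and at 3426 against 12026 in the chimera, where the 2 cells named above held 744 and 577 of its 1507 UMIs. Species limits of 10% and 90% left 6 LECs, and both of these cells, of 54641 and 39767 UMIs, were among them. With those 6, Fabp4 turned to a log2 ratio of 0.81 in the chimera, and Aqp1, Gpihbp1, Lpl and Vwf also turned. The part of the 2 cells in this was not tested. Esm1 had no UMI in SD rat LECs and was at least 41.1-fold lower there. Apart from Fabp4, no gene of fatty acid use passed 2-fold in either animal (0 of 12 higher and 1 lower in the SD rat, 0 of 10 higher and 1 lower in the chimera). Over all genes 8.54% and 6.12% were higher and 13.6% and 11.4% lower, so these counts do not set the list apart. The haemoglobin gene Hba-a2, which belongs to red cells, was among the 10 lowest, at 320 against 8517 CPM in the SD rat and 161 against 8778 in the chimera. Enpp3, Kcnt2, Cxcr4, Niban1, Csf3 and Dach1 were the others.

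Genes of the MHC class I and interferon list were more often lower than higher in these LECs. In the SD rat 0 of 14 were higher and 6 lower, and in the chimera 0 of 13 were higher and 4 lower. Over all genes 8.54% were higher and 13.6% lower in the SD rat, and 6.12% and 11.4% in the chimera. Gbp2, Ifit3 and Irf7 were lower in both. Cd74, the invariant chain of MHC class II, was found in 6.19% of SD rat LECs (7 UMIs) and 24.6% of chimera rat LECs (15 UMIs). In cells with Pdgfra the shares were 8.20% and 20.9%, at median depths of 11330 and 12569 UMIs against 6032 and 7596 in LECs. These shares are not at matched depth, and the part of background in them was not tested. In the chimera, thinned to 1000 UMIs, the Cd74 share was 3.51% in LECs (0.428 to 12.1) and 2.54% in cells with Pdgfra. The difference was not detectable at this depth. For the remaining lists the dissociation response had 1 of 15 genes higher and 5 lower in the SD rat and 2 higher and 1 lower in the chimera. Cell cycle genes had 1 of 6 higher and 0 lower, and 0 of 13 higher and 2 lower. For both lists the shares over all genes were 8.54% higher and 13.6% lower in the SD rat, and 6.12% and 11.4% in the chimera. Among lists of other cell types, the muscle list had 7 of 10 and 8 of 9 genes lower, against 13.6% and 11.4% of all genes. The mural list had 8 of 8 lower in both animals, and the immune list 4 of 6 and 6 of 7. Immune genes held 22 and 17 UMIs over all LECs, and a gene needed 30 to be compared. They thus passed only through blood endothelial cells, so their direction is not a result. Mural genes held 115 and 163 UMIs over all LECs and were open to the same limit. Without the cells marked as doublets, 0 of 10 muscle genes were 2-fold lower in the SD rat, with a median log2 ratio of -0.85. Mesenchymal genes had 2 of 9 higher and 4 lower in the SD rat and 1 of 8 higher and 3 lower in the chimera, and without the 4 cells 0 of 9 were higher and 7 lower, and 0 of 8 higher and 7 lower. Glial genes had 1 of 3 and 1 of 1 lower. They were found in 9 and 4 LECs with at most 1 UMI in a cell, so they too passed only through blood endothelial cells.

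**Figure D4:**
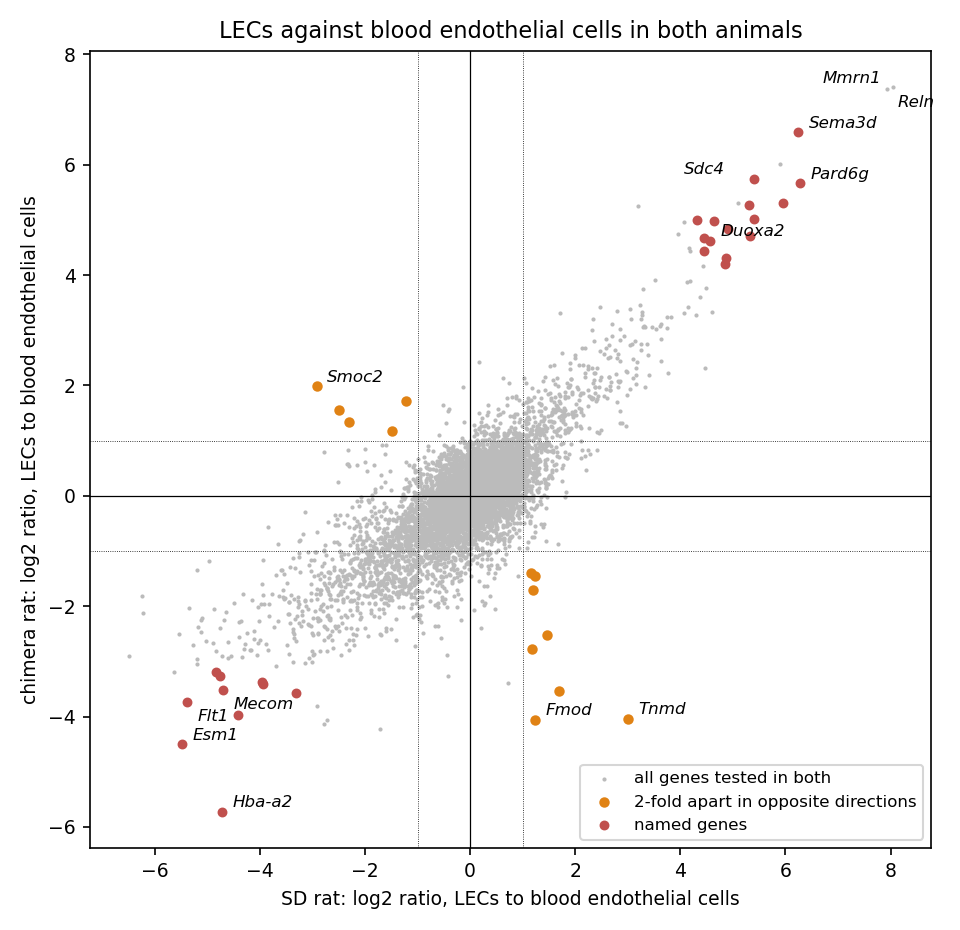
Log2 ratio of LECs to blood endothelial cells in the SD rat (x axis) and in the chimera rat cells (y axis), on the log2(CPM + 5) scale, 1 point per gene. Dotted lines mark 2-fold, red points are the named genes and orange points the 13 genes that were 2-fold apart in opposite directions. Sema3d and Pard6g lie at the upper right, and Esm1, Flt1 and Hba-a2 at the lower left.

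The last comparison set chimera rat LECs against SD rat LECs, to describe rat lymphatic endothelium that developed beside mouse cells. Of 5026 genes compared, 142 were higher (2.83%) and 151 lower (3.00%) in the chimera, and the median log2 ratio was -0.06 with quartiles of -0.36 and 0.24. The animal, the library, the digestion and the reference genome all differ between the groups and cannot be told apart. Chimera reads had mouse genes in their reference beside the rat genes. The highest genes given here (Gphn, Lars2, Camk1d, Hmgb1, Cmss1, Mrps28, Rpl35a, Rpl22 and Rplp2) had 87.5% to 100% of their chimera UMIs on mouse rows, and were also higher in chimera rat blood endothelial cells. On rat rows alone the log2 ratio of Rplp2 turned, to -0.65. Gphn was at 277 CPM in chimera rat LECs and had no UMI in SD rat LECs (at least 52.3-fold higher), with 324 CPM and no UMI in the blood endothelial cells.

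The lowest genes were mostly low in chimera blood endothelial cells too. Atp13a4, a P5-type ATPase, was in 62 of 97 SD rat LECs and 0 of 57 chimera rat LECs, at 210 and 0 CPM (at least 30.8-fold lower), and at 163 and 0 CPM in blood endothelial cells. Hs6st3, a heparan sulphate 6-O-sulphotransferase, was in 94 SD rat and 9 chimera rat LECs, at 1214 and 54.5 CPM, and at 1092 and 0.965 CPM in blood endothelial cells. For Lyl1 and Anapc4 the blood endothelial cells were within 2-fold. Lyl1, an endothelial transcription factor, was at 65.4 CPM in SD rat and 6.82 in chimera rat LECs (3 UMIs, ratio 0.104, 0.0206 to 0.329), with a log2 ratio of -0.47 in blood endothelial cells. Anapc4 was at 51.3 and 9.09 CPM, with -0.35 in blood endothelial cells. Fam229a, Glis1, Nell1, Mb, Tnnt1 and Igf2 were the others among the 10 lowest.

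Lymphatic genes were compared next between the animals. Of 17 outside the rule, Ackr4 was higher and Igfbp5, Nrp2 and Stab1 were lower, and the other 13 were within 2-fold, with a median of -0.15 against -0.06 over all genes. Over all genes 2.83% were higher and 3.00% lower. Nrp2 was at 291 against 599 CPM and Stab1 at 54.5 against 155 CPM. Sema3d (ratio 1.42, 1.18 to 1.71), Maf (1.46, 1.19 to 1.80), Nr2f2 (1.51, 1.26 to 1.82) and Tbx1 (0.737, 0.504 to 1.07) were among the 13. Maf and Nr2f2 had 59.2% and 58.6% of their chimera UMIs on mouse rows, and on rat rows alone their log2 ratios turned from 0.54 to -0.63 and from 0.59 to -0.56. With the 6 chimera LECs left by species limits of 10% and 90%, the log2 ratio was -4.74 for Sema3d, -1.33 for Maf, -1.28 for Nr2f2 and -1.43 for Tbx1. The LECs of 54641 and 39767 UMIs named above were among those 6. The rule genes, on which the cells were chosen, are given as a description. Prox1 (ratio 1.08, 0.853 to 1.36), Reln (0.830, 0.740 to 0.929), Pdpn (0.819, 0.695 to 0.963), Mmrn1 (0.641, 0.564 to 0.726), Pecam1 (0.928, 0.747 to 1.15) and Cdh5 (1.20, 1.01 to 1.43) were within 2-fold, and Prox1 was at a log2 ratio of -0.89 on rat rows alone. Flt4 was at 45.5 CPM in the chimera and 125 CPM in the SD rat (ratio 0.362, 0.209 to 0.602), on 20 and 71 UMIs. Of 23 transcription factors outside the rule, 1 passed 2-fold, Lyl1, which was lower. In the valve list Bmp4 and Foxp2 were higher and Cldn11 and Fn1 lower of 13. For both lists the shares over all genes were 2.83% higher and 3.00% lower. Bmp4 had 49 UMIs in 4 chimera LECs, 22 of them in 1 cell, and Foxp2 had 23 UMIs in 8 chimera LECs, 11 of them in 1 cell. Leaving out the cell with most UMIs put the log2 ratio of Foxp2 at 0.51, and the mean of CPM per cell put that of Cldn11 at 0.018. Fn1, the fibronectin of valve matrix, was at 164 against 424 CPM, with a log2 ratio of 0.07 in blood endothelial cells.

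The dissociation response was higher in the chimera, with 6 of 15 genes higher and 0 lower against the 2.83% of all genes, and a median of 0.51. Egr1 was at 1362 against 334 CPM, Btg2 at 2128 against 891, Fos at 4057 against 1470 and Zfp36 at 2121 against 721. Ier2 and Dnajb1 were the others. Zfp36 and Fos had 51.8% and 30.4% of their chimera UMIs on mouse rows. On rat rows alone 5 of 15 were higher with a median of 0.54, and the log2 ratio of Zfp36 fell from 1.55 to 0.61 and that of Fos from 1.46 to 1.05. In blood endothelial cells the median of the list was 0.09, against -0.03 over all genes. In cells with Pdgfra it was 0.59, against 0.07 over all genes. In LECs without the 4 cells named above, 4 of the genes were higher and the median was 0.48. With the 6 chimera LECs left by species limits of 10% and 90%, 2 were higher, 1 lower and the median was 0.09. These are early genes that respond to handling as well as to signals in tissue, and the part of handling was not tested.

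The blood endothelial list was also higher in chimera rat LECs, with 7 of 11 genes higher (2.83% over all genes) and 0 lower and a median of 1.44, but this rested on few cells. Fabp4 was at 3426 against 127 CPM, found in 35 of 57 and 42 of 97 cells. Without the 4 cells that stood apart, 2 of 9 genes were higher and the median was 0.18, and without the chimera rat LEC with most UMIs alone, 3 of 9 were higher and the median was 0.49. Among LECs with a Ccl21 UMI, 2 of 9 were higher, with a median of 0.31. These alternatives were also chosen after seeing the data. Muscle genes went the other way, with 8 of 9 lower (3.00% over all genes) and a median of -1.40. In blood endothelial cells their median was -0.86, against -0.03 over all genes. Acta1, the actin of muscle fibres, was at 1182 against 3066 CPM and was found in every LEC of both animals. In cells with Pdgfra the median of the muscle genes was -0.20, against 0.07 over all genes. Mesenchymal genes were split, with 3 higher and 4 lower of 7, and without the 4 cells 0 of 4 were higher and 2 lower. Of the others, 3 leukocyte traffic genes (Ackr4, Cxcl1 and Cxcl12) were higher and 1 (Stab1) lower of 16, against 2.83% and 3.00% of all genes. Cxcl12 was found in 5 of 57 chimera LECs, and its log2 ratio was 2.94, or 2.17 without the 4 cells. Cxcl1 had a log2 ratio of 1.18, which turned to -0.56 with the species limits of 10% and 90%. In the last list, 0 of 8 MHC class I and interferon genes passed 2-fold. With 2.83% of all genes higher and 3.00% lower, 0 of 8 does not set this list apart.

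Further examples had at most 5% of their chimera UMIs on mouse rows and were chosen after their values were seen. A low share on mouse rows does not show that the reference had no part, which was not tested. Cemip2, a hyaluronan-degrading membrane protein, was at 668 against 230 CPM in LECs (ratio 2.91, 2.36 to 3.60), while its log2 ratio was -0.58 in blood endothelial cells and -0.27 in cells with Pdgfra. Cd55, an inhibitor of complement, was at 134 against 51.3 CPM in LECs, with -0.30 and -0.24 in the other cells. Tnfrsf1a, a receptor for tumour necrosis factor, was at 72.7 against 24.7 CPM, with -0.14 and -0.10. Among lower genes Rcan2, a regulator of calcineurin, was at 47.7 against 140 CPM (ratio 0.342, 0.201 to 0.559), with -0.16 in blood endothelial cells and 0.36 in cells with Pdgfra. Cdkl1 was at 29.6 against 101 CPM, with -0.30 and -0.03. Serf2 was lower in all 3 kinds of cell, with log2 ratios of -1.55 in LECs, -1.34 in blood endothelial cells and -1.53 in cells with Pdgfra. The differences between LECs and the other cells were not tested.

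**Figure D5:**
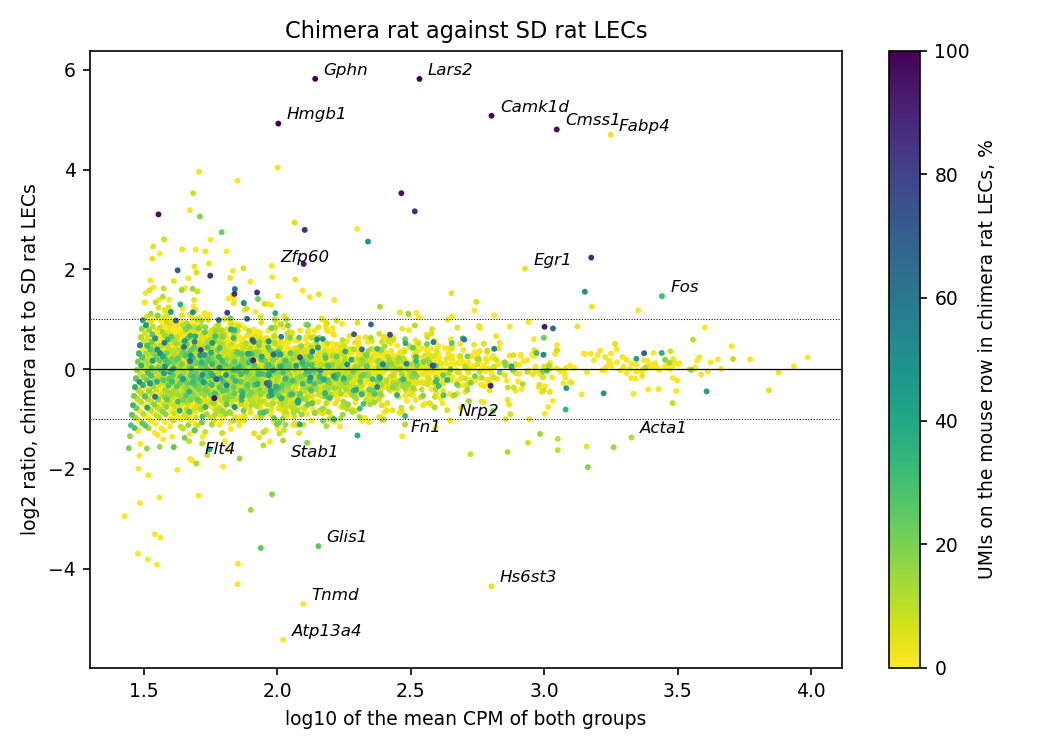
Log2 ratio of chimera rat to SD rat LECs (y axis, log2(CPM + 5) scale) against log10 of the mean CPM of both groups (x axis), 1 point per gene, coloured by the percentage of chimera UMIs on the mouse row. Dotted lines mark 2-fold. Gphn, Lars2, Camk1d and Cmss1 at the top are the colour of mouse rows, while Fabp4, Egr1, Flt4, Fn1, Hs6st3 and Atp13a4 are not.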

How the data were processed

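The values deposited by the authors are unnormalized UMI counts for each gene in each barcode. Per the submitters' processing notes they came from Cell Ranger 7.1.0 on mRatBN7.2 and GRCm39. The chimera was mapped to 23373 rat and 25906 mouse genes together, and the SD rat to the same rat genes alone. Muscle of the whole body was digested with collagenase II and sorted for living cells with a viability dye. The SD rat library held 70957559 UMIs in 10117 barcodes and the chimera 118872850 in 13299.

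Rat and mouse rows of a symbol were added. Cells had at least 500 UMIs, at least 200 genes and at most 20% mitochondrial UMIs. Scrublet (scanpy 1.11.5, expected rate 8%) marked 162 of 8980 SD rat and 350 of 12174 chimera cells, kept here. Summed UMIs were scaled over 16235 symbols present in both species, with a pseudocount of 5 CPM, for genes with at least 30 UMIs in at least 5 cells. Called genes were 2-fold or more apart. Shares carry exact Clopper-Pearson intervals and ratios exact binomial intervals (scipy 1.17.1). The fold procedure was tested on simulated data. With 1 library per group there was no test. Of 296 list genes, 21 (Lyve1 and Cldn5 among them) were not analysed on a rat row.

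Named genes were those of the lists, the 15 highest and 10 lowest against blood endothelial cells outside the rule, and the 10 highest and 10 lowest between animals in at least 10% of LECs of the higher group with no cell above 25% of the UMIs. A gene that this rule names is not reported here. The members and lists were chosen with earlier results of these data known. Alternatives covered marker number, species limits, rat rows alone, thinning, filters, pseudocounts, doublets and single cells.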

Additional observations from a re-analysis of the deposited data

Results flagged for a closer look

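Of the chimera cells with between 20% and 80% of UMIs on mouse genes, which no comparison used, 9 of 1836 met the marker rule (0.490%). In 6 of them Prox1 was found with at most 1 Mmrn1 UMI, no Reln and 12 to 77 Flt1 UMIs. The other 3 held 7, 7 and 5 Mmrn1 UMIs, 42, 8 and 7 Reln UMIs and no Flt1, with 79, 0 and 180 Ccl21 UMIs and 22.1% to 35.0% of UMIs on mouse genes. These are drawn to attention because they carry lymphatic genes and lie outside the species calls.

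The contrast of LECs with blood endothelial cells was 2-fold or more apart in opposite directions in the SD rat and the chimera for 13 genes, Ccn3, Cilp2, Col11a1, Col11a2, Col6a6, Comp, Cpxm2, Cxcl14, Fmod, Kera, Pcdh7, Smoc2 and Tnmd, and this difference between the animals was not tested. In the SD rat 1 LEC held 130 of the 139 Tnmd UMIs, and the 3 highest cells held 89.9% of the Fmod UMIs. Without the 4 LECs that stood apart, 6 genes were in opposite directions, and Pcdh7 was the one shared with the 13.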

How the results depend on the processing

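No paired analysis was possible because each group has 1 sample, so there was no replicate to leave out. The doublet removal, the pseudocount of 1 CPM and the marker rule without Lyve1 moved no LEC or mouse share, no count over all genes and no median over all genes. Doublet removal did bring 7 muscle genes in the SD rat and Atf3 in the chimera under 2-fold against blood endothelial cells. Among single named genes 3852 values kept their size, 194 moved and 35 reversed, over all alternatives. The cause of each change was not tested, except where fewer cells, genes or rows make it.

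Shares changed with the rule. With a minimum of 2 markers the LEC share was 0.885% of chimera rat and 0.806% of chimera mouse cells, or 12.2% and 1.63% of endothelial cells, and mouse cells were 16.7% of chimera LECs. With a minimum of 4 markers the SD rat shares were 0.768% and 8.71%. No mouse LEC was left by 4 markers, by rows of the own species or by thinning to 2000 UMIs, so each of those mouse shares was 0. With species limits of 10% and 90% the chimera rat shares were 0.202% and 13.6%, and mouse cells were 14.3% of LECs and 95.3% of blood endothelial cells. After thinning to 2000 UMIs the shares of all cells were 0.595% in the SD rat and 0.270% in chimera rat cells, the chimera rat share of endothelial cells was 7.28%, and mouse cells were 69.5% of blood endothelial cells. With Pecam1 or Cdh5 as enough for a blood endothelial cell, LECs were 5.99% and 5.17% of endothelial cells, and the mouse share of blood endothelial cells was 50.3%.

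Counts of genes changed with filter and scale. In chimera against SD rat LECs the higher and lower counts were 93 and 72 with a pseudocount of 20 CPM, 36 and 51 with a minimum of 100 UMIs, 674 and 648 without that filter, and 272 and 1068 (median -0.33) with the 6 LECs left by 10% and 90%. Against blood endothelial cells the SD rat had 392 higher and 646 lower with 20 CPM, and 345 higher with 100 UMIs. The chimera had 332 and 417, 245 and 557, and with 10% and 90% 193 and 536. Without the cell with most UMIs of each gene, 230 genes were lower between the animals and 1442 lower in chimera LECs against blood endothelial cells, and the higher share of called genes went from 48.5% to 33.1% and from 34.8% to 21.7%. It was 20.3% between the animals with 10% and 90%. Genes with at most 5% of UMIs on mouse rows, an alternative chosen after seeing the data, gave 90 and 83.

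Log2 ratios of these genes reversed. Between the animals, rat rows alone gave Adm -1.05 and Rplp2 -0.65, and the mean of CPM per cell gave Cldn11 0.018 and Flt1 -0.55. Without the top cell of each gene Col3a1 was -0.30, Dcn -0.54, Lum -0.35 and Rgs5 -0.23. With 10% and 90% Cxcl1 was -0.56, Dcn -3.16 and Dnajb1 -0.18. Chosen after seeing the data, LECs with a Ccl21 UMI gave Adm -0.47, and leaving out the 4 LECs that stood apart gave Aqp1 -0.041, Col3a1 -0.71, Dcn -0.30 and Flt1 -0.41. Against blood endothelial cells in the SD rat, Fmod and Tnmd were -1.03 and -0.28 without the top cell, and -1.20 and -0.55 without those 4. In the chimera Smoc2 was -0.55 and -0.53. With 10% and 90% the chimera gave Aqp1 0.28, Cd34 0.34, Cxcl12 0.14, Fabp4 0.81, Fgl2 -2.41, Gpihbp1 0.64, Irf7 0.33, Jam2 0.19, Lpl 0.56, Rgs5 0.61, Tcf15 0.98, Tek 0.35 and Vwf 0.33. The LECs of 54641 and 39767 UMIs were among the few left there.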
